A study of Mus musculus with 6 samples.

Results

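Nuclear genes of respiratory complex I were taken as every gene symbol that starts with Nduf and does not end in a pseudogene suffix, which gave 45 of the 38926 symbols in the count tables. Of these 45 genes, 36 encode subunits of the complex (7 core and 29 accessory), 7 encode assembly factors (Ndufaf1 to Ndufaf7), and 2 (Ndufa4 and Ndufa4l2) encode proteins that are not counted as complex I subunits. No symbol had the pseudogene suffix. Ndufb1 is not among the symbols analysed here, and Ndufaf8 is listed under its older symbol 1810043H04Rik, so it was not a member. The rule used names alone and no measured value.

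RNA sequencing was performed on hematopoietic stem cells (HSCs) sorted from mouse fetal liver at day E14.5 of embryonic life, with 3 control and 3 Dpy30 knockout samples. Dpy30 is a shared subunit of the complexes that methylate histone H3 at lysine 4. Controls were Vav-Cre; Dpy30F/+ (1 floxed and 1 wild-type allele, hence heterozygous once Cre has acted) and knockouts were Vav-Cre; Dpy30F/- (1 floxed and 1 null allele), so both groups carried the Cre driver, which acts in blood cells. Each of 3 litters gave 1 control and 1 knockout, and samples carry the number of their litter below. Whether a sample was 1 embryo or a pool is not given in the sources used here, and p-values measure the spread over these 3 litters. Levels are CPM (counts per 1000000 gene counts), scaled by the trimmed mean of M-values (TMM).

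Complex I takes electrons from NADH and passes them to ubiquinone while it pumps protons across the inner mitochondrial membrane. Its core subunits carry the flavin, the iron-sulfur clusters, the quinone site and the proton channels; those of the membrane are encoded by mitochondrial DNA and the others by nuclear genes. Accessory subunits surround that core in a peripheral arm, which holds the redox centers, and a membrane arm. Assembly factors help to build modules of the complex and are absent from the finished enzyme. HSCs of the adult are known to rely on glycolysis more than their progeny do, and fetal liver HSCs to cycle and respire more than adult ones.

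Gene counts per sample ranged from 31897737 to 43394700. Of these, 49.2% to 67.7% fell on mitochondrial genes, highest in control 1, which left 12552028 to 18549189 counts on nuclear genes. Most of the mitochondrial counts were rRNA, which made up 45.2% to 61.7% of all gene counts. The targeted gene, Dpy30, stood at 24.6, 24.2 and 31.6 CPM in controls 1 to 3 and at 7.93, 5.95 and 13.7 CPM in knockouts 1 to 3, with no overlap (log2 fold change -1.55, SE 0.46; edgeR quasi-likelihood adjusted p = 0.672; exact permutation p = 0.1, the smallest that 3 against 3 allows). Summed HSC markers (18 genes) were 1020 to 1078 CPM in controls and 1146, 1230 and 628 CPM in knockouts 1 to 3. Summed macrophage and myeloid markers (20 genes) were 260 to 361 CPM in controls and 781, 563 and 2010 CPM in knockouts 1 to 3. Knockout 3 was thus the lowest of the 6 samples in HSC markers and the highest in macrophage and myeloid markers. Every knockout exceeded every control at 9 of those 20 myeloid genes, against only 6.39% of all genes tested. Summed erythroid markers were 1362 to 2539 CPM in controls and 1182, 1336 and 3154 CPM in knockouts 1 to 3. Knockout 3 was again the highest of the 6 samples. In such bulk samples, fewer cells of a type and less RNA per cell cannot be told apart.

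Promoter sequences were matched by symbol to RefSeq (GRCm38.p6) for 39 of the 45 genes, as the 250 bases before the annotated start. CG dinucleotides were dense there: the ratio of observed to expected CG had a median of 0.804 over these 39 promoters and 0.378 over all 27025 promoters, and 38 of the 39 lay above that overall median. Promoters rich in CG are the class at which H3K4 trimethylation is found. To show this class, 3 promoters are printed with CG in capitals, those of both members that follow Ndufa2 in the ranking of p-values (Ndufb8 and Ndufv3) and of the assembly factor with the lowest log2 fold change (Ndufaf3). They lie at chr19:44555443-44555692 on the minus strand (15 CG), chr17:31519865-31520114 on the plus strand (14 CG) and chr9:108567437-108567686 on the minus strand (21 CG).
Ndufb8: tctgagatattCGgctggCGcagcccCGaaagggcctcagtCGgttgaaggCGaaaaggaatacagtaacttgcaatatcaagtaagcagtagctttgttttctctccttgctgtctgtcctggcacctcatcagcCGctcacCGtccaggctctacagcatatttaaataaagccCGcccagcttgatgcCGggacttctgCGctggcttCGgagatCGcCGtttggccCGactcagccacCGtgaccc
Ndufv3: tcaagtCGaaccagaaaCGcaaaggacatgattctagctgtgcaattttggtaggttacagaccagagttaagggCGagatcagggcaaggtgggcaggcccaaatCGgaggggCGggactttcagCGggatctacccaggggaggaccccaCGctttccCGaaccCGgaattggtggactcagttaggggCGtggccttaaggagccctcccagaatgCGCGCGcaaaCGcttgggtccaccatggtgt
Ndufaf3: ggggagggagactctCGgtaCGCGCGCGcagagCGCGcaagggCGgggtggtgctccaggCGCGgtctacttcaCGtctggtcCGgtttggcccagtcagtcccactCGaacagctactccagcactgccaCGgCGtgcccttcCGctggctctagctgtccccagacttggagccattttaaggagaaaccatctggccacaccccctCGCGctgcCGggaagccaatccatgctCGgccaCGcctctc
All 3 are CG-rich by this ratio (0.806, 0.688 and 0.787 in the same order), although their transcripts had log2 fold changes of opposite sign, which are given with the values below.

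Letters of known mitochondrial regulators were searched in the same windows on both strands. The letters GCATGCGC of NRF1, a transcription factor of many respiratory genes, occurred in 4 of the 39 promoters (10.3%) and in 2.32% of all promoters. The ETS-family letters CCGGAAG, to which GABPA binds, occurred in 4 of 39 (10.3%) and in 7.05% of all promoters. The YY1 letters AAGATGGCG occurred in 0 of 39 and in 0.607% of all promoters, and CCAAT in 13 of 39 (33.3%) and in 34.5%. The NRF1 matches are shown within 40 bases, with the matched letters in capitals; in Ndufa11 and Ndufaf4 the matches of the 2 strands overlap, so that the capitals run longer.
Ndufa11, chr17:56717686-56717725, plus strand: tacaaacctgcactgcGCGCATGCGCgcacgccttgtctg
Ndufa6, chr15:82354351-82354390, minus strand: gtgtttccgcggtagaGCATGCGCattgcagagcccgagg
Ndufa8, chr2:36049339-36049378, minus strand: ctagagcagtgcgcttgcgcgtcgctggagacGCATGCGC
Ndufaf4, chr4:24897954-24897993, plus strand: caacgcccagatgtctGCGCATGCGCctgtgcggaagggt
These 4 genes had log2 fold changes of 1.05 (Ndufa11), 0.11 (Ndufa6), 0.51 (Ndufa8) and -0.17 (Ndufaf4). They did not share a direction.

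Among the 44 members with enough counts to be tested, 25 of 36 subunits and 3 of 7 assembly factors had a positive log2 fold change of knockout over control, and no member passed the edgeR test over all genes. At an edgeR adjusted p under 0.05, 0 of 44 members and 0 of 13646 genes (0%) were called. At an unadjusted p under 0.05, 3 members were higher (Ndufa2, Ndufb8 and Ndufv3, all accessory subunits) against 4.26% of all genes, and 0 were lower against 2.24%. The 3 higher members (6.82%) became 1 without control 3 (Ndufa2, 2.27%, against 2.67% of all genes then). They were 2 (4.55%) without control 1 or without control 2, against 2.30% and 2.87% of all genes. Without knockout 1 they were 5 (11.4%, against 5.37%). Without knockout 2, 3 members were higher (6.82%, against 5.89%) and Ndufa10 was lower (2.27%, against 4.09%). DESeq2 called Ndufa2 alone as higher, against 0.762% of all genes called higher and 0.256% called lower. Every knockout lay above every control at 7 members (15.9%) against 6.39% of all genes, and below at 0 members against 7.74%. The count of 7 was 8 without knockout 3 (18.2%, against 11.7% of all genes then), 11 without control 3 (25%, against 9.24%) and 19 without knockout 1 (43.2%, against 12.4%). The count of 0 below became 5 without knockout 2 (11.4%, against 15.3%), 3 without knockout 3 (6.82%, against 12.8%) and 1 without control 1 (2.27%, against 12.5%) or without control 2 (2.27%, against 11.8%).

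Log2 fold changes had a median of 0.34 over the 7 core subunits (5 positive, 2 negative), 0.30 over the 29 accessory subunits (20 positive, 9 negative) and -0.17 over the 7 assembly factors (3 positive, 4 negative). All genes tested had a median of 0.01, with 50.8% positive. The difference between the medians of all 36 subunits and of the assembly factors was 0.49. It rested on knockout 3: without that sample the medians were -0.06 for core subunits, 0.19 for accessory subunits and 0.14 for assembly factors, the difference was 0.0017, and 21 of 36 subunits were positive instead of 25. Scaling by library size alone moved the median of all genes to 0.23, and the assembly factors then had a median of 0.04, below that of all genes as before.

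**Figure D1:**
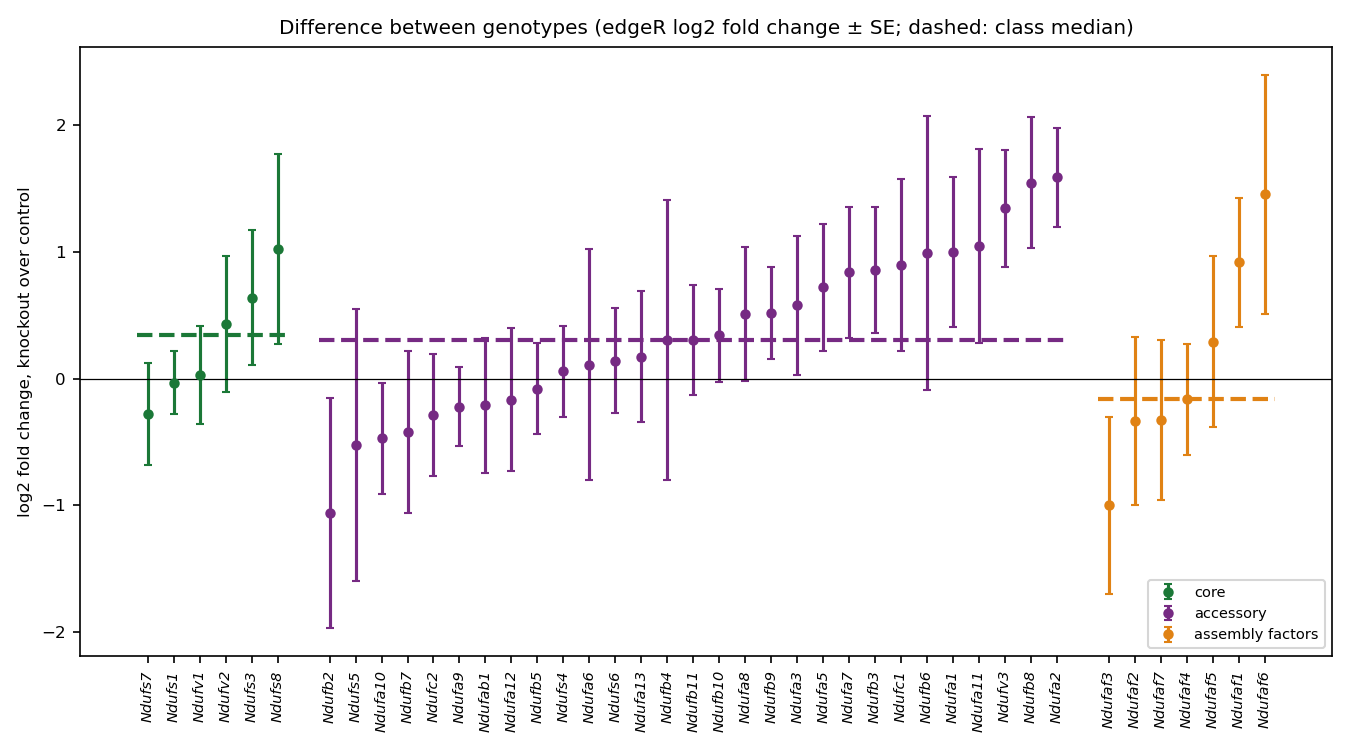
Log2 fold change of knockout over control for tested subunits and assembly factors, with bars of 1 standard error from edgeR and a dashed line at the median of each class. Ndufa2, Ndufb8 and Ndufv3 stand highest among the subunits, and the class medians are 0.34, 0.30 and -0.17.

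Core subunits carry the redox chain of the peripheral arm, and the 7 nuclear ones differed among themselves. Ndufs8, which holds iron-sulfur clusters next to the quinone site, was at 6.04, 14.8 and 19.8 CPM in controls 1 to 3 and at 6.94, 22.5 and 53.1 CPM in knockouts 1 to 3 (log2 fold change 1.02, SE 0.75; edgeR adjusted p = 0.866). Within each litter the knockout was the higher sample, yet the groups overlapped widely, with litter 1 low in both. Without knockout 3 the log2 fold change of Ndufs8 was 0.13. Ndufs3, a subunit of the quinone module, was at 7.77, 6.37 and 9.39 CPM in controls and at 12.7, 9.34 and 14.6 CPM in knockouts (0.64, SE 0.53; adjusted p = 0.88). Its groups met at a single pair, knockout 2 and control 3.

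Ndufs7, which carries the last cluster before ubiquinone, was at 20.5, 27.0 and 17.3 CPM in controls and at 14.52, 15.7 and 23.0 CPM in knockouts (log2 fold change -0.28, SE 0.40). Both knockouts of litters 1 and 2 lay below all controls, and knockout 3 lay within them. Ndufs1, the largest core subunit and a carrier of several clusters, was at 48.8, 43.6 and 47.4 CPM in controls and at 45.2, 42.1 and 49.4 CPM in knockouts (-0.03, SE 0.25), over nearly the same range. Ndufv1, which binds NADH and the flavin, was at 36.1, 33.5 and 26.2 CPM in controls and at 18.6, 42.2 and 37.1 CPM in knockouts (0.03, SE 0.39). Its partner in the flavin module, Ndufv2, was at 17.7, 18.3 and 19.7 CPM in controls and at 16.4, 12.4 and 46.3 CPM in knockouts (0.43, SE 0.54). Knockouts 1 and 2 were below every control for Ndufv2 and knockout 3 was far above, so that without knockout 3 the log2 fold change was -0.35.

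The accessory subunits Ndufa2, Ndufb8 and Ndufv3 led the ranking by p-value. Ndufa2, a small subunit of the NADH-oxidizing module with a thioredoxin-like fold, was at 9.36, 9.98 and 10.05 CPM in controls and at 21.9, 29.8 and 36.7 CPM in knockouts. Every knockout exceeded every control, and the controls were nearly equal. The control mean was 9.79 ± 0.379 CPM and the knockout mean 29.5 ± 7.44 CPM (SD, n = 3; ratio 3.01; log2 fold change 1.59, SE 0.39; edgeR adjusted p = 0.622). DESeq2 gave Ndufa2 an adjusted p of 0.0234, and of 0.0803 with the litter as a block. Leaving out any 1 sample kept its log2 fold change between 1.41 and 1.76. Its annotated exons share 66 bases with Tmco6 on the opposite strand, and whether the counting used strand is not given in the sources used here, so reads in those bases cannot be told apart.

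Ndufb8 (chr19:44548572-44555440, minus strand), a subunit of the membrane arm, was at 6.28, 7.84 and 6.67 CPM in controls and at 11.1, 20.8 and 28.8 CPM in knockouts (log2 fold change 1.55, SE 0.52; edgeR adjusted p = 0.721, DESeq2 adjusted p = 0.178). Again no knockout overlapped with a control, and the knockout with the most macrophage and myeloid marker RNA, knockout 3, had the highest value. It shares 134 exon bases with Gm20538 on the same strand. Ndufv3 (chr17:31520115-31531331, plus strand), an accessory subunit at the flavin site, was at 9.88, 5.96 and 7.53 CPM in controls and at 17.1, 18.7 and 23.5 CPM in knockouts (1.34, SE 0.46; edgeR adjusted p = 0.721, DESeq2 adjusted p = 0.189). These knockouts lay closer together than those of Ndufb8, with means of 7.79 ± 1.97 and 19.8 ± 3.35 CPM (SD, n = 3). Knockout 3 was highest at both genes and in the macrophage and myeloid sum, in which knockouts 1 and 2 stood in the reverse order. Among the knockouts alone, the erythroid sum, at 1182, 1336 and 3154 CPM in knockouts 1 to 3, rose in the order of these genes. Over all 6 samples it did not follow them. The sum was 1362, 2539 and 2449 CPM in controls 1 to 3, where both genes were lower than in every knockout. The HSC sum was lowest in knockout 3. The part of these marker sums in the values was not tested. Without knockout 3 the log2 fold changes of Ndufb8 and Ndufv3 were 1.22 and 1.21.

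Of the other accessory subunits ranked among the first 10 by p-value, 3 had no overlap between groups. A ranking by p on these same samples favors such genes, so this count adds no evidence. Over all genes tested, every knockout was above every control at 6.39%. Ndufb3, in the membrane arm, was at 8.05, 8.80 and 6.53 CPM in controls and at 11.5, 14.2 and 16.7 CPM in knockouts (log2 fold change 0.86, SE 0.50; edgeR adjusted p = 0.824). Ndufa5, in the quinone module, was at 7.53, 9.57 and 8.10 CPM in controls and at 10.6, 13.2 and 17.6 CPM in knockouts (0.72, SE 0.50; adjusted p = 0.863). Ndufa7, in the NADH-oxidizing module, was at 8.18, 9.55 and 10.6 CPM in controls and at 12.5, 12.0 and 26.3 CPM in knockouts (0.84, SE 0.51; adjusted p = 0.834). For Ndufa7, knockouts 1 and 2 were only just above the controls, and knockout 3 was far above all others; without knockout 3 its log2 fold change was 0.38.

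The remaining 4 of these 10 overlapped. Ndufa1, a small membrane-arm subunit encoded on the X chromosome, was at 8.46, 7.11 and 13.0 CPM in controls and at 10.4, 13.4 and 33.4 CPM in knockouts (log2 fold change 1.00, SE 0.59), and without knockout 3 its value was 0.33. Ndufa11, an integral membrane-arm subunit, was at 5.73, 4.60 and 3.97 CPM in controls and at 3.98, 6.59 and 19.0 CPM in knockouts (1.05, SE 0.77), and without knockout 3 its value was 0.16. Ndufc1, another membrane-arm subunit, was at 7.42, 9.23 and 4.88 CPM in controls and at 4.53, 16.4 and 19.1 CPM in knockouts (0.90, SE 0.68). Knockout 1 was the lowest of its 6 samples and knockouts 2 and 3 the highest. Ndufb9, a membrane-arm subunit with the LYR motif, was at 33.7, 35.1 and 49.6 CPM in controls and at 33.5, 58.5 and 77.1 CPM in knockouts (0.52, SE 0.36), with the same split of knockout 1 from the others. Without knockout 3 the values were 0.55 for Ndufc1 and 0.23 for Ndufb9.

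**Figure D2:**
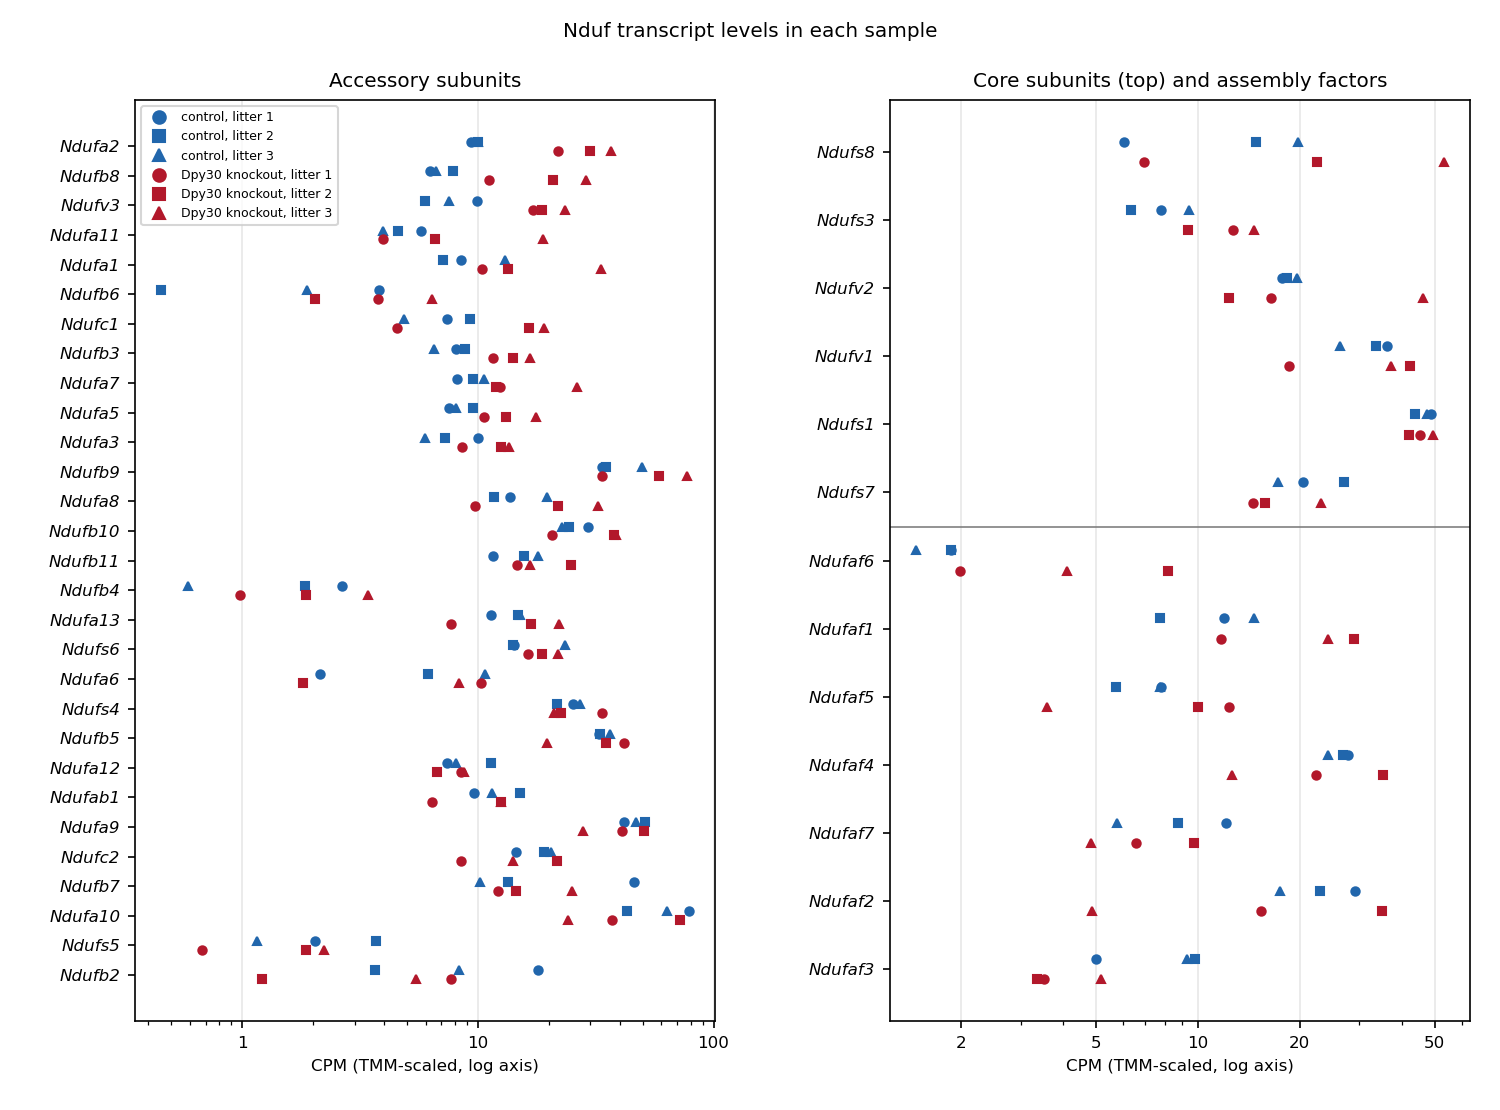
CPM by gene in each sample on a log axis, with accessory subunits on the left and core subunits and assembly factors on the right, each ordered by log2 fold change; blue marks controls, red knockouts, and the symbol gives the litter. Red and blue do not overlap for Ndufa2, Ndufb8, Ndufv3, Ndufb3, Ndufa7, Ndufa5 and Ndufaf6; the red triangle, knockout 3, is the rightmost point for most subunits (21 of 36, of which 1 is not drawn).

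The other 19 accessory subunits had log2 fold changes from -1.06 to 0.99, of which 10 were positive and 9 negative. The genes named in this paragraph were chosen after their values were seen. Ndufb2, in the membrane arm, had the lowest, with 17.99, 3.66 and 8.35 CPM in controls and 7.70, 1.21 and 5.46 CPM in knockouts (-1.06, SE 0.91). The knockout was the lower sample in every litter, while the groups overlapped. Ndufa9, which sits where the arms join, was the only other subunit lower in every knockout of its litter, by 0.03, 0.01 and 0.74 on the log2 scale, which is a difference in litter 3 only. Ndufa10, a membrane-arm subunit with a nucleoside kinase fold, was at 78.7, 43.1 and 63.5 CPM in controls and at 37.2, 72.1 and 24.2 CPM in knockouts (-0.47, SE 0.44). Litter 2 went the other way from litters 1 and 3. Ndufs4, a late-joining subunit whose loss is a known cause of mitochondrial disease, was at 25.3, 21.8 and 27.2 CPM in controls and at 33.8, 22.6 and 20.99 CPM in knockouts (0.06, SE 0.36), within the same range.

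By arm, the 16 peripheral subunits had a median log2 fold change of 0.24 (12 positive) and the 19 membrane subunits 0.34 (13 positive). Ndufab1, the mitochondrial acyl carrier protein, is found in both arms and was at 9.67, 15.1 and 11.5 CPM in controls and at 6.37, 12.5 and 12.5 CPM in knockouts (-0.21, SE 0.53). The arms differed in litter 1. There, 11 of 16 peripheral subunits were higher in the knockout (median log2 difference 0.23) against 5 of 19 membrane subunits (median -0.50). Of all genes tested, 6941 of 13646 were higher in that litter (median 0.02). In litters 2 and 3 both arms had positive medians, 0.33 and 0.46 in the peripheral arm and 0.66 and 0.91 in the membrane arm. Control 1 and knockout 1 also differ most in the share of mitochondrial counts, 67.7% against 49.2% (61.7% against 45.2% for mitochondrial rRNA alone). The part of this share was not tested.

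The 7 Ndufaf assembly factors showed no common direction. Ndufaf1 acts with Ecsit, Acad9, Tmem126b and Timmdc1 on the membrane arm, and was at 11.9, 7.73 and 14.6 CPM in controls and at 11.7, 28.9 and 24.2 CPM in knockouts (log2 fold change 0.92, SE 0.51; edgeR adjusted p = 0.8). Knockout 1 lay among the controls and knockouts 2 and 3 above them. Ndufaf6, needed early for the membrane-arm subunit mt-Nd1, was at 1.86, 1.87 and 1.47 CPM in controls and at 1.99, 8.19 and 4.11 CPM in knockouts (1.45, SE 0.95; adjusted p = 0.848). Its groups did not overlap, but knockout 1 stood barely above the controls, and without knockout 2 the value was 0.81. Ndufaf5, which modifies an arginine of Ndufs7, was at 7.80, 5.72 and 7.71 CPM in controls and at 12.3, 10.03 and 3.60 CPM in knockouts (0.29, SE 0.67). Knockouts 1 and 2 exceeded every control and knockout 3 was below every one.

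Ndufaf3 and Ndufaf4, which bind each other on the quinone module, had negative log2 fold changes. Ndufaf3 (chr9:108565537-108567434, minus strand) was at 5.01, 9.82 and 9.30 CPM in controls and at 3.52, 3.36 and 5.17 CPM in knockouts (-1.001, SE 0.70; edgeR adjusted p = 0.863). All litters had the lower value in the knockout, and the groups touched only where knockout 3 just exceeded control 1. The control mean was 8.04 ± 2.64 CPM and the knockout mean 4.02 ± 1.00 CPM (SD, n = 3), and leaving out any 1 sample kept the log2 fold change between -1.25 and -0.83. Ndufaf4 was at 27.7, 26.8 and 24.2 CPM in controls and at 22.3, 35.2 and 12.7 CPM in knockouts (-0.17, SE 0.44). Its knockouts fell on both sides of closely spaced controls.

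Ndufaf2, a relative of the subunit Ndufa12 that holds its place during assembly, was at 29.1, 22.9 and 17.5 CPM in controls and at 15.4, 34.9 and 4.88 CPM in knockouts (log2 fold change -0.33, SE 0.66). Without knockout 3 the value was 0.13. The exons of Ndufaf2 share 1955 bases with B230220B15Rik on the opposite strand. Ndufa12 itself was at 7.42, 11.3 and 8.07 CPM in controls and at 8.48, 6.72 and 8.71 CPM in knockouts (-0.17, SE 0.56). Ndufaf7, a methyltransferase of the mitochondrial matrix, was at 12.1, 8.72 and 5.76 CPM in controls and at 6.57, 9.76 and 4.86 CPM in knockouts (-0.33, SE 0.63). For Ndufaf2, Ndufaf4 and Ndufaf7 alike, knockout 2 was the highest knockout and knockout 3 the lowest. The older symbol of Ndufaf8 was at 6.49, 4.84 and 0.862 CPM in controls and at 2.94, 4.66 and 2.26 CPM in knockouts (-0.31, SE 0.99).

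The subunits and the assembly factors were then set against each other within each sample. The mean log2 CPM of the 36 subunits in controls 1, 2 and 3 was 3.66, 3.58 and 3.64, and in knockouts 1, 2 and 3 it was 3.56, 3.89 and 4.33. The mean of the 7 assembly factors was 3.30, 3.16 and 3.13 in the controls, against 3.03, 3.79 and 2.74 in the knockouts. Subunits minus assembly factors thus gave 0.36, 0.42 and 0.50 in controls and 0.53, 0.10 and 1.59 in knockouts. The controls agreed closely (0.43 ± 0.07, SD, n = 3), and the knockouts lay on both sides of them (0.74 ± 0.77, SD, n = 3). No p is given for this score, since the members were chosen with results of these data known.

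**Figure D3:**
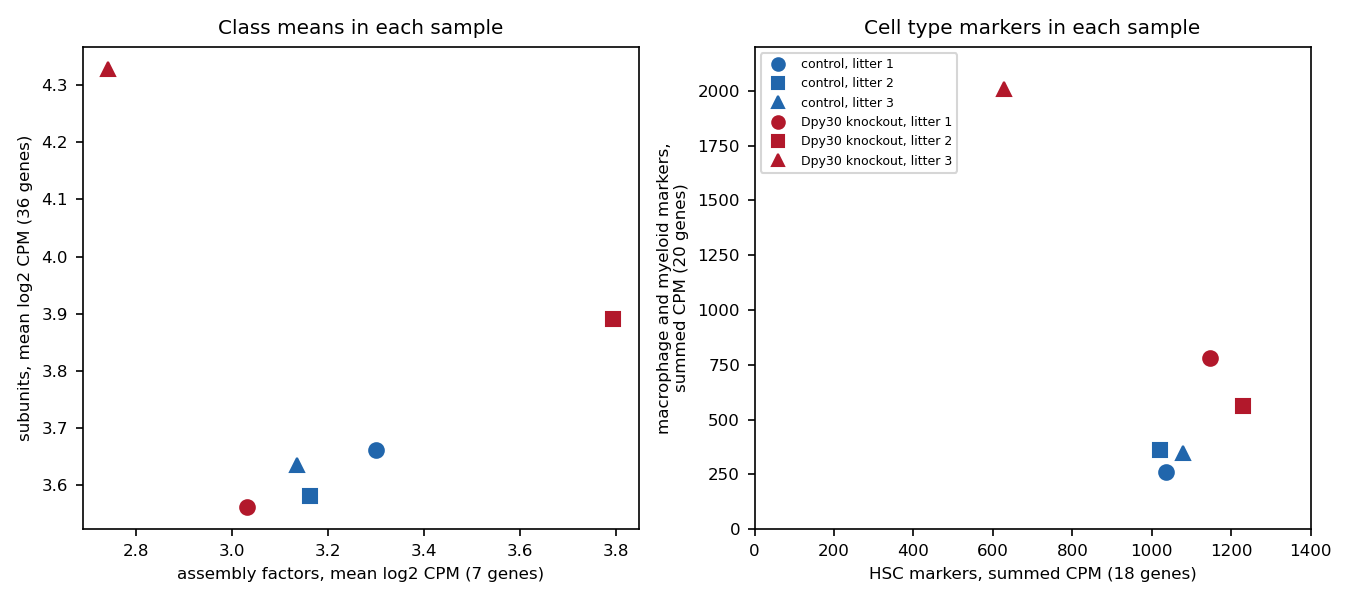
Left, mean log2 CPM of the 36 subunits against that of the 7 assembly factors in each sample; right, summed CPM of macrophage and myeloid markers against summed CPM of HSC markers in the same samples. The 3 controls lie together in both panels, and knockout 3 (red triangle) lies apart in both, at 4.33 for subunits, 2.74 for assembly factors, 2010 CPM of macrophage and myeloid markers and 628 CPM of HSC markers.

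Knockout 3 was the highest of the 6 samples for 21 of 36 subunits, and for 25.6% of all genes tested. It was the lowest for 4 of 7 assembly factors, and for 30.3% of all genes. Knockout 2 was the highest sample for 4 of 7 assembly factors, and for 18.6% of all genes. Knockout 1 was the lowest of the 6 samples for 10 of 36 subunits, and for 14.8% of all genes. Within litters, 16, 27 and 27 of 36 subunits were higher in the knockout in litters 1, 2 and 3, with mean log2 differences of -0.10, 0.31 and 0.69. Over all genes tested, 6941, 6406 and 6079 of 13646 were higher in the knockout in these litters. The assembly factors gave mean differences of -0.27, 0.63 and -0.39 in the same litters, so both classes were higher in litter 2 and the classes parted in litter 3. All genes tested had mean differences of 0.14, -0.40 and -0.50 in these litters, and median differences of 0.02, -0.08 and -0.17. The TMM factors were 0.747 for control 1 and 1.25 for knockout 1, the lowest and the highest of the 6 samples. Signs of differences in litter 1 therefore depend on the scaling. HSC, macrophage and myeloid marker sums set knockout 3 apart as well. Knockout 3 was also the highest of the 6 samples in the erythroid sum (3154 CPM) and in the lymphoid sum (53.6 CPM). The part of these sums in the result was not tested.

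**Figure D4:**
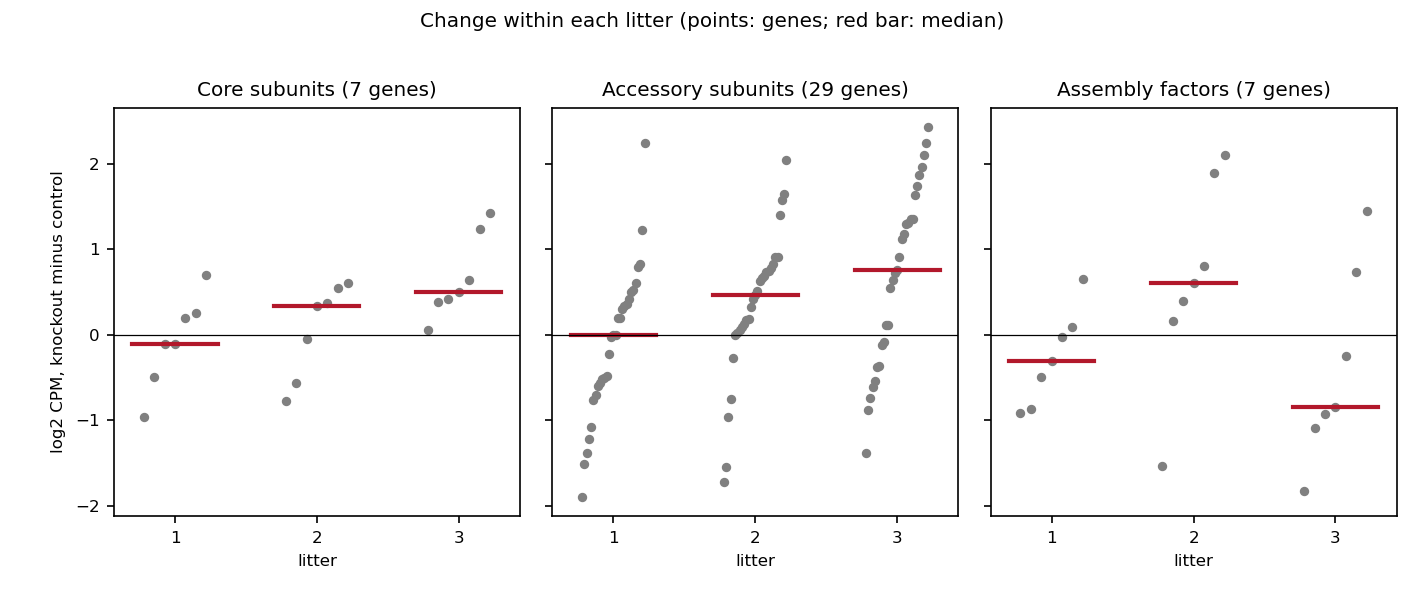
Difference in log2 CPM, knockout minus control of the same litter, for each gene of the 3 classes, with the median as a red bar. Medians in litter 1 are -0.11 for core subunits and -0.0092, close to 0, for accessory subunits. Both are above 0 in litters 2 and 3, while that of the assembly factors is above 0 only in litter 2.

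Spread differed between the groups. The SD of log2 CPM had a median over members of 0.31 in controls and 0.62 in knockouts, against 0.49 and 0.89 over all genes tested, so members varied less than the average gene in both groups and, like it, more in knockouts. Across litters, 11 members were higher in the knockout all 3 times (among them Ndufs3, Ndufs8, Ndufa1, Ndufa2, Ndufa5, Ndufa7, Ndufb3, Ndufb8, Ndufv3 and Ndufaf6), or 25% of those tested against 12.3% of all genes. In the other direction, 3 members were lower all 3 times (Ndufa9, Ndufb2 and Ndufaf3), or 6.82% against 15.9%. Lengths were taken as all bases covered by exons of a gene's protein-coding transcripts. By this length subunits were short, with a median of 1014.5 bases. The median was 1479 for the assembly factors and 3490 for all genes tested that have a length. The 18 subunits under 1000 bases had a median log2 fold change of 0.43 and the other 18 of 0.12, while all genes tested had medians of -0.03 under 1000 bases and 0.04 above.

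Levels between genes were compared per kilobase of exon of protein-coding transcripts. The places given here depend on this length, and other lengths were not tested. Ndufb2, with 4375 such bases, took place 42 in controls, although its mean CPM was above that of Ndufa2 (9.79 CPM, 572 bases, place 17). Ndufb7 and Ndufaf2 (places 3 and 6) had 623 and 755 such bases, while all their annotated exons cover 4522 and 2978 bases. In controls, the highest level was that of Ndufa4 (64.4 ± 9.99 CPM per kb, SD, n = 3), followed by Ndufb9 (56.0 ± 12.5), whose ranges overlap. Ndufb7 came next at 37.1 ± 31.6 CPM per kb, a mean set by control 1, where its level was 45.8 CPM against 13.4 and 10.2 CPM in controls 2 and 3. Ndufb10 (32.8 ± 4.33), Ndufa9 (30.8 ± 3.10), Ndufaf2 (30.7 ± 7.69) and Ndufa10 (30.6 ± 8.86) followed and did not differ beyond their spread. Among the core subunits described above, the levels went from 7.50 ± 1.45 (Ndufs3) to 21.9 ± 5.02 CPM per kb (Ndufs7). At the bottom stood Ndufaf6 (1.61 ± 0.210), Ndufb4 (1.75 ± 1.07), Ndufb2 (2.29 ± 1.67) and Ndufs5 (2.67 ± 1.50), again within each other's spread, and Ndufa4l2 below them (0.133 ± 0.119). In knockouts Ndufa2 went from place 17 to place 3 of the 45, at 51.5 ± 13.0 against 17.1 ± 0.663 CPM per kb.

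Some low levels belong to genes with near-identical copies, between which reads can be placed only where the sequences differ. In 8 members, a pseudogene transcript matched at 95% identity or more over at least 100 bases. The main transcript of Ndufb4 matched Ndufb4c over 390 bases at 100% identity, and that of Ndufs5 matched BC002163 over 319 bases at 99.4%. Ndufs3 matched Gm12251 over 792 bases at 98.6%, and that copy received 102, 214 and 340 counts in the controls against 310, 97 and 1346 in the knockouts. The other 5 were Ndufb3 (Gm45930, 96.8% over 282 bases), Ndufa12, Ndufab1, Ndufb11 and Ndufs6. Values of these 8 members are therefore uncertain, and 13.4% to 18.3% of reads per sample were set aside as not uniquely aligned. In all, 19 of the 45 members share annotated exon bases with another gene. None of Ndufa2, Ndufb8, Ndufv3 and Ndufaf3 had such a pseudogene copy.

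Ndufa4, once assigned to complex I and now known as a subunit of cytochrome c oxidase, was at 36.7, 47.4 and 36.5 CPM in controls and at 33.0, 39.7 and 56.4 CPM in knockouts (log2 fold change 0.10, SE 0.31). Its relative Ndufa4l2, which is induced in hypoxia, had 0, 8 and 7 counts in controls and 5, 0 and 122 counts in knockouts and was not tested. Nearly all of its reads came from knockout 3. A count of 0 allows a level of up to 0.104 CPM in control 1 and 0.0827 CPM in knockout 2 (3 counts; counting error only).

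Assembly factors with other names were described from a list of 12, of which 11 are in the files and were tested. No member of the list passed the edgeR or DESeq2 test in either direction, and their median log2 fold change was 0.06 (6 positive, 5 negative). Lyrm2, which helps to assemble the NADH-oxidizing module, was at 0.622, 2.14 and 0.862 CPM in controls and at 5.38, 1.05 and 21.2 CPM in knockouts (2.93, SE 1.21). Knockout 2 lay among the controls, and without knockout 3 the value was 1.42. Foxred1, which acts late in assembly, was at 5.28, 8.05 and 20.5 CPM in controls and at 3.98, 5.10 and 5.54 CPM in knockouts (-1.21, SE 0.71), with overlap. Without control 3 its value was -0.45.

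Of the 7 complex I subunits encoded by mitochondrial DNA, 5 were tested, and all 5 had negative log2 fold changes that did not pass the test (median -0.41), such as mt-Nd1 (-0.59, SE 0.30) and mt-Nd2 (-0.56, SE 0.38). Control 1 was the highest of the 6 samples for both, with mt-Nd1 at 14311, 7911 and 6863 CPM in controls and 5323, 7829 and 6161 CPM in knockouts. Without control 1 their values were -0.20 and -0.03, and those of mt-Nd4 and mt-Nd5 turned from -0.18 and -0.15 to 0.11 and 0.15, so that 3 of the 5 were negative. Scaling by library size alone also turned mt-Nd4 and mt-Nd5, and leaving out knockout 1 turned mt-Nd5.

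Complex II feeds electrons to ubiquinone beside complex I. Its 8 listed genes, subunits and assembly factors together, had a median log2 fold change of -0.46 (3 positive, 5 negative), and 0 of them passed either test. The subunits Sdha, Sdhb, Sdhc and Sdhd had 0.09, 0.96, 0.61 and -1.11. The assembly factors Sdhaf1 to Sdhaf4 had -0.80, -0.62, -0.29 and -1.02, all negative. Sdhd, a membrane anchor, was at 143, 125 and 90.6 CPM in controls and at 45.3, 69.5 and 51.4 CPM in knockouts (-1.11, SE 0.28; edgeR adjusted p = 0.622, DESeq2 adjusted p = 0.0716). Sdhb, its iron-sulfur subunit, was at 19.5, 20.9 and 18.2 CPM in controls and at 26.4, 43.5 and 44.3 CPM in knockouts (0.96, SE 0.35; edgeR adjusted p = 0.729). Neither gene overlapped between the groups, and they lay in opposite directions. In all, every knockout was above every control at 1 of the 8 genes (12.5%, against 6.39% of all genes). Every knockout was below at 2, Sdhd and the assembly factor Sdhaf4 (25%, against 7.74%).

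Regulators of mitochondrial biogenesis (14 genes) had a median log2 fold change of -0.25 (4 positive, 10 negative), and 0 of them passed either test. With DESeq2 and the litter as a block, Ppargc1a, a coactivator of these programmes, was called lower (adjusted p = 0.0436, with 0.865% of all genes called lower), and it is named here after its values were seen. It had 37, 163 and 104 counts in controls and 90, 0 and 0 counts in knockouts, so knockout 1 lay among the controls. Nrf1 was at 26.5, 22.01 and 36.7 CPM in controls and at 14.1, 15.7 and 8.60 CPM in knockouts (-1.15, SE 0.42; edgeR adjusted p = 0.729). Every knockout was below every control, which held at 1 of the 14 genes (7.14%) against 7.74% of all genes. Every knockout was above every control also at 1 of the 14 (7.14%), against 6.39% of all genes. That gene was Esrra, named here after its values were seen. It was at 0.656, 0.669 and 0.431 CPM in controls and at 1.69, 1.24 and 3.03 CPM in knockouts (1.76, SE 1.09). Ppargc1b, a coactivator, was at 9.57, 11.1 and 16.4 CPM in controls and at 9.64, 1.16 and 1.06 CPM in knockouts (-1.64, SE 0.97). Knockout 1 was level with the controls and knockouts 2 and 3 were far below.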

How the data were processed

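Poly(A)-selected RNA of 6 samples was sequenced. The deposited tables hold raw counts per gene symbol; mm10, CASAVA 1.8.4, TopHat2, Picard 1.126, HTSeq 0.6.0 and bedtools 2.17.0 are named in the submitters' processing notes, with no order, and the annotation and strandedness are not given in the sources used here. Each table ends in 5 tallies of unassigned reads (41.0% to 51.0% of reads), which were left out. Genes were filtered with filterByExpr, scaled by TMM and tested with edgeR 4.0.16 (quasi-likelihood F test, two-sided, 3 against 3, no covariate) in R 4.3.3, with Benjamini-Hochberg adjustment over all 13646 genes tested and a threshold of 0.05; a simulation with known changes was used to check the fit. DESeq2 1.42.0, limma 3.58.1 (voom), other scalings and filters, the litter as a block and leaving out each sample were alternatives. Log2 CPM used a prior count of 2. The labels pair samples by litter; deviations from the group means correlated at -0.02, -0.08 and 0.0034 in litters 1 to 3. Gene positions, overlaps and lengths came from GENCODE M21 (all 45 members matched), promoters from RefSeq (GRCm38.p6) and copies from blastn 2.17.0. Members and gene lists were chosen with earlier results of these data known. Named genes were the core subunits (1 is not reported here by name, but counts in the class values), all Ndufaf genes, Ndufa4, Ndufa4l2, the 10 other Nduf genes with the smallest unadjusted p, and the 2 such genes of each other pathway list; others are marked or listed only by feature. Summed marker levels used fixed lists for HSC, macrophage and myeloid, erythroid, hepatocyte (at most 23.3 CPM) and lymphoid cells (at most 3.42 CPM in controls and 53.6 CPM in knockouts, nearly all of it Tcrg-C1 at 18.5, 6.48 and 50.0 CPM, with Cd3e, Cd3g, Cd3d, Pax5 and Dntt at 0 in all samples).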

Additional observations from a re-analysis of the deposited data

How the results depend on the processing

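Counts over all genes were 0 with edgeR, 1 without a filter on low counts, 1 with at least 10 counts in every sample, 139 with DESeq2 and 270 with DESeq2 and the litter as a replicate block, an alternative chosen after seeing the data; the Nduf count was 1 with DESeq2 and 0 with that block. With the litter as a block, edgeR called 0 genes, the assembly factors had a median of -0.28 and Ndufv1 turned to -0.0341; of the other Nduf genes tested it turned Ndufa6 alone (-0.0115), among the other listed genes it turned Tmem126b, Timmdc1, Dmac2, Polrmt and the older symbol of Ndufaf8 (0.0513), and it changed no edgeR call. Scaling by library size alone gave 0.0388 for the assembly factors, 0.18 for Ndufs1 and 0.0388 for Ndufaf4. Upper-quartile scaling gave -0.10 for Ndufv1 and -0.0393 for Ndufa4, limma-voom -0.0381 for Ndufv1, and DESeq2 with the block -0.0163; the cause was not tested. With 1 sample left out, ranges were -0.0622 to 0.47 for core subunits, 0.19 to 0.58 for accessory subunits, -0.58 to 0.14 for assembly factors and 0.0017 to 0.93 for the difference. Single genes that turned ranged from -0.0808 to 0.0234 (Ndufs1), -0.20 to 0.31 (Ndufv1), -0.35 to 0.76 (Ndufv2), -1.19 to 0.13 (Ndufaf2), -0.58 to 0.14 (Ndufaf4), -0.0522 to 0.67 (Ndufaf5) and -0.13 to 0.26 (Ndufa4). Members with no overlap above the controls numbered 7 to 19, a check added after seeing the data. Low counts, as for Ndufaf6 and Ndufb4, limit the precision of single genes.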
